A study of Homo sapiens with 4 samples.

Results

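The RAS-RAF-MEK-ERK cascade passes growth factor signals to the nucleus by phosphorylation of one kinase by the next. BRAF phosphorylates the MEK kinases, which *MAP2K1* and *MAP2K2* encode, and these phosphorylate ERK1, encoded by *MAPK3*, and its close relative ERK2. *MAPK14* encodes p38α, the main kinase of a parallel stress-activated arm. Active ERK induces transcription of its own inhibitors, among them the phosphatases *DUSP4* and *DUSP6* and the adaptor *SPRY2*, so these transcripts are commonly read as an output of ERK signalling. The cascade is a frequent driver of growth in glioblastoma, usually through receptor tyrosine kinases or loss of *NF1*. RNA-seq measures the transcripts of these genes and not the phosphorylation that sets kinase activity.

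These 8 genes, 5 kinases (with *MAPK14* from the parallel arm) and 3 feedback genes, were listed by name, out of 46660 gene identifiers in the deposited table. They were followed in 4 RNA-seq libraries of the glioblastoma cell lines U87MG and U251MG. In each cell line, 1 library came from cells infected with an empty vector lentivirus (pGreen, also called shControl) and 1 from cells infected with shRNA lentivirus against *FLI1* (shFLI1), a gene for an ETS family transcription factor. All 4 cultures were infected, selected with puromycin and harvested as mixed stable cells rather than as single clones. The study used 2 shRNAs against *FLI1*, and the labels do not say whether a library holds 1 or both. Neither cell line has a replicate of either arm, so no spread between cultures is known, and 95% intervals are Clopper-Pearson intervals that cover counting error alone. In such bulk libraries, fewer expressing cells and less RNA per cell cannot be told apart.

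Library totals ran from 12229780 to 28891055 counts, and the shFLI1 library was 1.74 times as deep as its control in U87MG and 1.60 times in U251MG. The glial and neural stem markers *VIM*, *NES*, *SOX2*, *SOX9* and *GFAP* were counted in all libraries, in CPM (counts for each 1e+06 counts of the library, after TMM scaling for library composition). *GFAP*, an astrocyte filament gene, was at 634 and 1587 CPM in U87MG control and shFLI1 and at 20.4 and 93.8 CPM in U251MG, and passed the edgeR test of an effect common to both cell lines (adjusted P = 0.00783). *NES* had log2 fold changes of 0.51 and 0.70 and *SOX2* of 0.43 and 0.31, both higher in shFLI1 in each cell line. *SOX9* did not share this direction, at -0.16 (95% interval -0.25 to -0.075) in U87MG and -0.043 (-0.10 to 0.019) in U251MG. *VIM* had -0.047 in U87MG, or 0.11 with scaling to total counts, and 0.079 in U251MG. The part of these markers in the results was not tested. *S100B* had at most 11 counts, the leukocyte marker *PTPRC* at most 5, the endothelial marker *PECAM1* at most 3 and the epithelial marker *CDH1* at most 1. The endothelial marker *CDH5* had 51 and 50 counts in the U87MG libraries and 6 and 10 in U251MG. After scaling for depth, *CDH5* had a log2 fold change of -0.96 (-1.58 to -0.39) in U87MG, and in U251MG its interval spanned 0. The targeted *FLI1* was at 9.34 CPM in U87MG control and 2.34 CPM in U87MG shFLI1, and at 12.1 and 3.71 CPM in U251MG. Its log2 fold changes were -1.95 (95% interval -2.51 to -1.51) and -1.68 (-2.05 to -1.37), so the libraries labelled shFLI1 held less of its transcript in both cell lines.

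The kinase transcripts kept close to their control level in both cell lines, whereas the feedback transcripts went in different directions. In U87MG, *DUSP4*, *DUSP6* and *SPRY2* were all higher in shFLI1 cells than in control cells, *DUSP6* most, at 1.75-fold. In U251MG, *DUSP4* was 2.42-fold lower, *DUSP6* was lower by counts but not by the authors' FPKM (fragments scaled for transcript length and sequencing depth), and *SPRY2* was not distinguishable from its control. By TMM-scaled counts, all 5 kinases stayed between 0.894-fold and 1.10-fold of control in both cell lines.

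**Figure D1:**
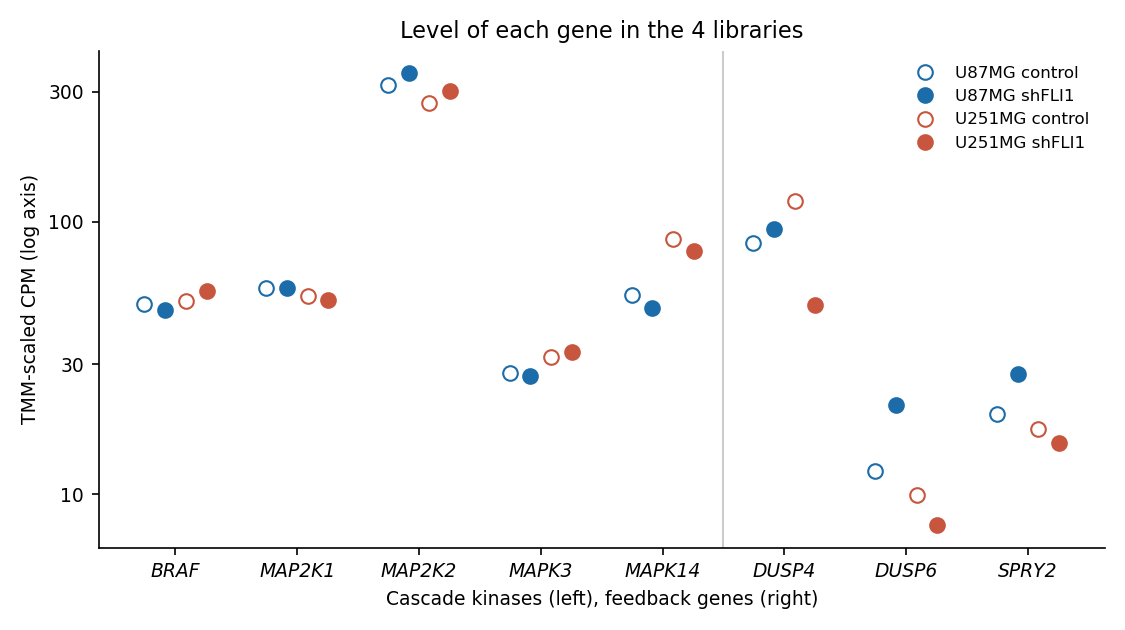
Each point is 1 library, open for control and filled for shFLI1, with U87MG in blue and U251MG in red; the y axis is TMM-scaled CPM on a log axis. The points of each kinase lie close together within a cell line, whereas the filled U251MG point of *DUSP4* lies at 49.4 CPM against 119.6 CPM in its control.

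A gene was read as higher or lower in a cell line when the 95% interval of its ratio left out 0 on the log2 scale, and as called when it was also past 2-fold. Genes were tested where either library of the pair held at least 10 counts. These readings compare 2 libraries and not the conditions. Of the 8 genes, 0 were called in U87MG, where 11.4% of 17355 tested genes were called in either direction. In U251MG 1 of the 8 was called, *DUSP4*, which was lower, where 8.17% of 18222 genes were called in either direction. At any fold, 4 of the 8 were higher and 1 was lower in U87MG, against 26.7% and 23.3% of all tested genes. In U251MG 2 were higher and 3 lower, against 24.6% and 23.1%. The shares of the 8 genes past 2-fold were thus near those of all genes, and most of the intervals that left out 0 belonged to small differences in well-counted genes. The median log2 fold change of the 8 genes was 0.069 in U87MG and -0.098 in U251MG, beside 0.059 and 0.041 over all tested genes.

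*BRAF* (Entrez gene 673, chromosome 7 of GRCh38, 140713328 to 140924929) encodes the RAF kinase at the entry of the cascade. In U87MG, 571 counts in control and 1054 in shFLI1 correspond to 49.9 and 47.4 CPM. The U251MG libraries held 911 and 1668 counts (51.1 and 55.7 CPM), and shFLI1 was the highest of the 4. Its log2 fold change was -0.073 (-0.22 to 0.076) in U87MG and 0.12 (0.0070 to 0.24) in U251MG, and the U87MG value turned positive with scaling to total counts (0.087).

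*MAP2K1* (Entrez gene 5604, chromosome 15, 66386912 to 66491544) encodes MEK1. Its U87MG levels were 57.2 CPM in control (655 counts) and 57.0 CPM in shFLI1 (1268 counts). Its U251MG levels were 53.4 CPM (952 counts) and 51.5 CPM (1542 counts). The 4 libraries were nearly level, with log2 fold changes of -0.0049 (-0.14 to 0.13) in U87MG and -0.052 (-0.17 to 0.066) in U251MG, both positive with scaling to total counts (0.16 and 0.022).

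*MAP2K2* (Entrez gene 5605, chromosome 19, 4090321 to 4124122) encodes MEK2, which acts beside MEK1 on the same substrates. Control and shFLI1 libraries of U87MG gave 318 CPM (3642 counts) and 351 CPM (7810 counts). Those of U251MG gave 274 CPM (4877 counts) and 302 CPM (9050 counts). The shFLI1 library was the higher of the pair in both cell lines, with log2 fold changes of 0.14 in each (0.086 to 0.20 in U87MG and 0.093 to 0.19 in U251MG), a 1.10-fold difference. The size depended on the scaling. With total counts it was 0.30 in U87MG and 0.22 in U251MG. By FPKM, after adding 1 and taking log2, it was 0.29 and 0.21.

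*MAPK3* (Entrez gene 5595, chromosome 16, 30114105 to 30123220) encodes ERK1, the last kinase of the cascade. Its U87MG control level of 27.9 CPM (320 counts) was next to 27.2 CPM (604 counts) in shFLI1. For U251MG the values were 31.9 CPM (569 counts) and 33.3 CPM (997 counts). The log2 fold change was -0.041 (-0.24 to 0.16) in U87MG, or 0.12 with scaling to total counts, and 0.061 (-0.089 to 0.21) in U251MG, so a difference in ERK1 transcript was not detectable at this depth.

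*MAPK14* (Entrez gene 1432, chromosome 6, 36027808 to 36124214) was at 53.8 CPM (616 counts) in U87MG control and 48.1 CPM (1070 counts) after knockdown. U251MG started higher, at 86.6 CPM (1543 counts), beside 78.4 CPM (2347 counts) in its shFLI1 library. The shFLI1 library was the lower of the pair in both cell lines, with log2 fold changes of -0.16 (-0.31 to -0.016) and -0.14 (-0.24 to -0.050), although in U87MG the value was -0.00047 when scaled to total counts and 0.095 by FPKM, after adding 1 and taking log2. The larger contrast was between the cell lines, since the U251MG control held 1.61 times the *MAPK14* CPM of the U87MG control.

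**Figure D2:**
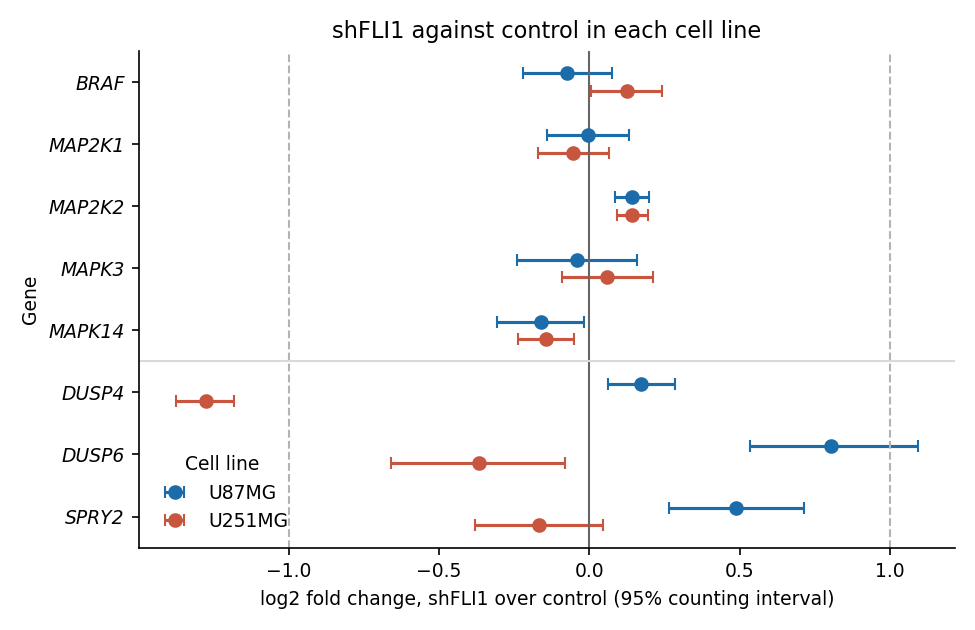
Points are log2 fold changes of shFLI1 over control in U87MG (blue) and U251MG (red), with 95% counting intervals as bars and dashed lines at 2-fold. The intervals of the 2 cell lines overlap for each kinase and lie apart for *DUSP4*, *DUSP6* and *SPRY2*; the U251MG value of *DUSP6* was negative by counts and slightly positive (0.047) by FPKM.

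*DUSP4* (Entrez gene 1846, chromosome 8, 29333064 to 29350684) encodes a nuclear dual-specificity phosphatase of ERK. The 2 U87MG libraries were at 83.4 CPM (control, 955 counts) and 94.0 CPM (shFLI1, 2090 counts). The 2 U251MG libraries were at 119.6 CPM (control, 2132 counts) and 49.4 CPM (shFLI1, 1478 counts), and *DUSP4* was the only one of the 8 genes with fewer raw counts in the deeper shFLI1 library. Among the libraries the U251MG control was the highest and the U251MG shFLI1 library the lowest, with both U87MG libraries in between. The log2 fold change was 0.17 (0.061 to 0.28) in U87MG and -1.28 (-1.37 to -1.18) in U251MG, where 41.3% of the control level was left. Among all tested genes the U251MG value lay at percentile 2.89 and the U87MG value at percentile 59.5.

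*DUSP6* (Entrez gene 1848, chromosome 12, 89347235 to 89352501) encodes a cytoplasmic phosphatase that acts on ERK. Its transcript was scarce, at 12.1 CPM (139 counts) in U87MG control and 21.3 CPM (473 counts) after knockdown. The corresponding U251MG levels were 9.93 CPM (177 counts) and 7.68 CPM (230 counts). The U87MG shFLI1 library stood above the other 3, with a log2 fold change of 0.80 (0.53 to 1.09), at percentile 86.6 of all tested genes. In U251MG the log2 fold change was -0.37 (-0.66 to -0.079), at percentile 15.5, while FPKM, with 1 added before log2, gave 0.047.

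The RNAs of *DUSP6* differed in direction in U251MG. The main *DUSP6* RNA, NM_001946, carried between 93.5% and 98.5% of the gene's counts and went from 2.86 to 2.21 FPKM in U251MG. The RNA URS0001BE25F7 went from 0 to 7.32 counts, and from 0 to 0.74 FPKM, and the sum over the gene went from 2.93 to 3.06 FPKM. In addition, 873 of 3627 exonic bases of the canonical *DUSP6* transcript overlap an annotated lncRNA on the opposite strand. The sources used here do not state strand-specific counting, and the share of reads from that lncRNA was not tested. Smaller overlaps with genes of the opposite strand were annotated for *MAP2K1* (324 bases) and *BRAF* (160 bases).

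*SPRY2* (Entrez gene 10253, chromosome 13, 80335976 to 80341126) encodes Sprouty 2, an inhibitor that acts between receptor tyrosine kinases and RAF. Knockdown and control of U87MG stood at 27.7 CPM (616 counts) and 19.7 CPM (226 counts). For U251MG they stood at 15.4 CPM (462 counts) and 17.3 CPM (309 counts). As for *DUSP6*, the U87MG shFLI1 library was the highest and the U251MG shFLI1 library the lowest of the 4 in CPM. The log2 fold change was 0.49 (0.27 to 0.72) in U87MG and -0.17 (-0.38 to 0.045) in U251MG, where the interval spanned 0.

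The log2 fold changes of the feedback genes differed between the cell lines by more than counting error. U251MG minus U87MG was -1.45 for *DUSP4* (95% interval -1.59 to -1.30, from the reciprocals of the counts), -1.17 for *DUSP6* (-1.56 to -0.78) and -0.65 for *SPRY2* (-0.96 to -0.35). Among the kinases, the same difference was 0.20 for *BRAF* (0.010 to 0.39), and the intervals of *MAP2K1*, *MAP2K2*, *MAPK3* and *MAPK14* spanned 0. The *MAP2K2* difference was 0.0010 (-0.075 to 0.077). With 1 library per arm, spread between cultures does not enter these intervals. *DUSP4* and *DUSP6* were higher in U87MG and lower in U251MG with both intervals clear of 0, which held for 2 of 8 genes and for 3.39% of the 16384 genes tested in both cell lines.

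The same CPM values can be set out as ratios between the 2 cell lines within each arm, which restates these differences. In control cells, U251MG held 1.43 times the *DUSP4* CPM of U87MG, 0.818 times the *DUSP6* CPM and 0.878 times the *SPRY2* CPM. In shFLI1 cells the same ratios were 0.525, 0.361 and 0.557, so all 3 feedback transcripts were lower in U251MG than in U87MG. The ratios of *MAP2K1* were 0.934 in control and 0.903 in shFLI1 cells, and those of *MAP2K2* 0.860 and 0.861.

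A change common to U87MG and U251MG was sought with the quasi-likelihood test of edgeR, fitted to all 4 libraries with cell line as a block, which left 1 residual degree of freedom. None of the 8 genes passed a Benjamini-Hochberg adjusted P of 0.05, where 0.919% of 16649 genes were higher and 2.14% lower. At an unadjusted P below 0.05 there were also 0 of 8, beside 2751 of the 16649 genes. DESeq2 also gave 0 of 8, beside 405 of 15035 genes, and 0 of 8 before adjustment, beside 1409 genes. The lowest adjusted P from edgeR was 0.362, for *DUSP4* with a shared log2 fold change of -0.57, a value that averages over opposite directions in the 2 cell lines. *DUSP6* had 0.21 (adjusted P from edgeR 0.768), *SPRY2* 0.14 (0.777) and *MAPK14* -0.17 (0.608), lower in 2 of 2 cell lines. With every gene of at least 1 count kept in the edgeR fit, the adjusted P of *DUSP4* was 0.0270, and over all alternatives it ranged from 0.0270 to 1.00.

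Levels of different genes were compared by the authors' FPKM, summed over the RNAs of each gene. *MAP2K2* was the most abundant in every library, between 183 and 247 FPKM, and ranked between 333 and 470 among all genes. *MAP2K1* followed at 24.6 to 27.7 FPKM, *MAPK14* at 21.3 to 34.9, *MAPK3* at 19.3 to 25.9 and *DUSP4* at 10.2 to 22.3, ranges that overlap from one gene to the next. *SPRY2* had 7.79 to 14.0 FPKM, *BRAF* 5.52 to 7.03 and *DUSP6* 2.93 to 7.90. The MEK2 transcript exceeded the MEK1 transcript by 7.44 to 8.91 times in FPKM. From the lowest to the highest of the 4 libraries the FPKM of *MAP2K1* varied 1.13-fold, the least of the 8, and that of *DUSP6* 2.70-fold, the most.

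The estimated counts of several RNAs make up each gene, and the genes differed in how these counts were divided. A single RNA held at least 92.7% of the *DUSP4* counts and at least 93.5% of the *DUSP6* counts in each library, and at least 94.7% for *MAP2K2*. The leading RNA held 82.3% to 91.9% for *SPRY2* and 78.2% to 84.2% for *MAPK3*. For *BRAF*, with 13 RNAs, NM_001354609 held 52.0% and 57.9% in U87MG control and shFLI1, and 49.7% and 73.2% in U251MG. A second *BRAF* RNA, NM_001378468, went from 27.3% to 10.2% in U251MG. Another, NM_001378470, had 46.0 and 73.7 counts in the control libraries and 0 in both shFLI1 libraries.

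For *MAP2K1*, the predicted RNA XM_011521783 held 33.7% of the counts in U87MG control, 25.3% and 25.7% in the U251MG libraries, and 0 counts in U87MG shFLI1, where NM_002755 took 89.5%, against 62.1% in control. The sum over the gene was level across this change, while NM_002755 alone gave 0.52 on the log2 scale in U87MG, against -0.0049 for the sum, a comparison added after seeing the data. Estimated counts can pass from one overlapping RNA to another, so the gene sums and not single RNAs were read as the level of each gene. For *MAPK14*, with 17 RNAs, XM_006714998 held 44.0% and 45.3% in U87MG and 65.0% and 58.6% in U251MG, a difference between the cell lines that was present in both arms.

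**Figure D3:**
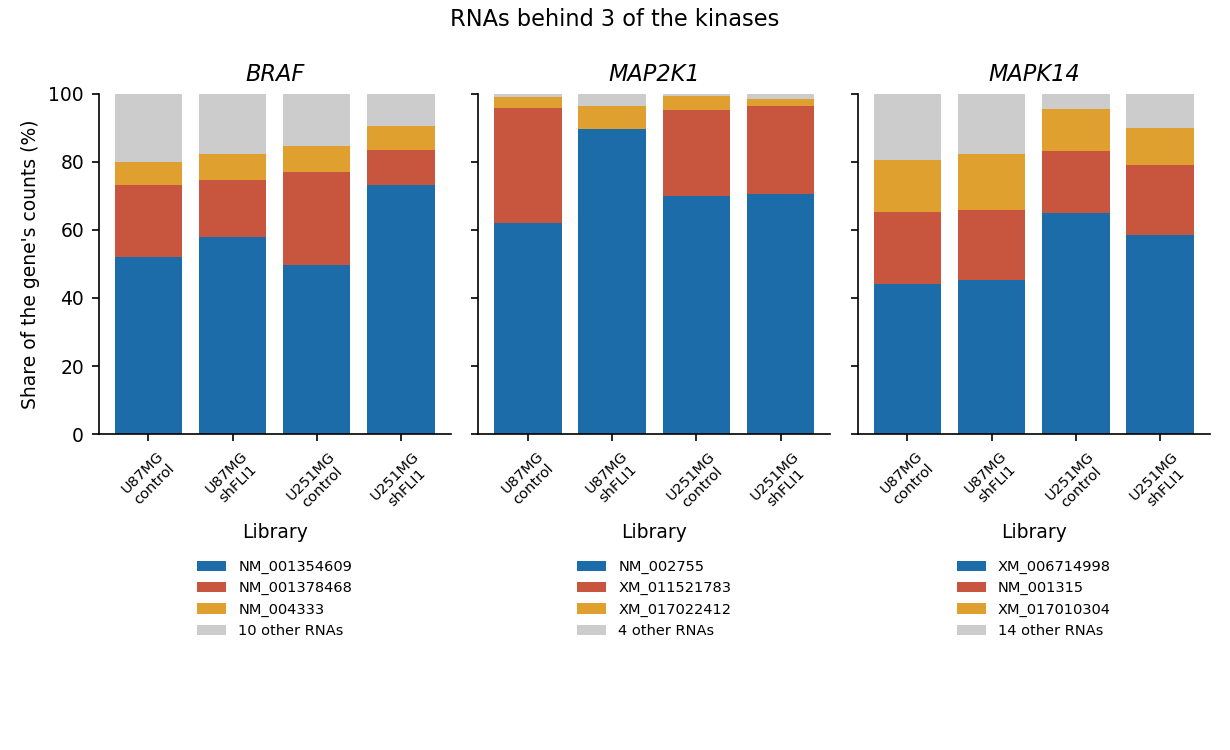
Stacked bars give the share of each gene's estimated counts (percent, y axis) taken by its 3 most counted RNAs and by the rest, in each of the 4 libraries (x axis). The *MAP2K1* RNA XM_011521783 is missing from the U87MG shFLI1 bar, and the *BRAF* RNA NM_001354609 takes 73.2% in U251MG shFLI1.

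FLI1 protein binds ETS sites, whose core is GGAA (TTCC on the other strand), and other ETS factors that ERK activates bind the same core. No RefSeq window matched *DUSP4*, so the bases before its start could not be examined. *DUSP6* and *SPRY2* are the feedback genes whose CPM was highest in U87MG shFLI1 of the 4 libraries. The 250 bases before their starts are shown from RefSeq (GRCh38.p14), with GGAA and TTCC in capitals.
*DUSP6*, chr12:89352502-89352751, minus strand: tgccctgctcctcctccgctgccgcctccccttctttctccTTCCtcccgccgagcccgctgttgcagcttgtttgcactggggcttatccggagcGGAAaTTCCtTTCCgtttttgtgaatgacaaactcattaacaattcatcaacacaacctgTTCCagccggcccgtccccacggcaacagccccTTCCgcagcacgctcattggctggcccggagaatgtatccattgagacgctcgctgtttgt
*SPRY2*, chr13:80341127-80341376, minus strand: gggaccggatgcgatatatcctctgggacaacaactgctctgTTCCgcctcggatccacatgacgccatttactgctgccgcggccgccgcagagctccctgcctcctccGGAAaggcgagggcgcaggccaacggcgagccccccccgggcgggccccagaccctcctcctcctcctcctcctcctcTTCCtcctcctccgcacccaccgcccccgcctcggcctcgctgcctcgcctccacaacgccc

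The *DUSP6* window holds 6 matches to the core and the *SPRY2* window 3, counted on both strands. The kinase windows hold 1 (*MAP2K2*, *MAPK3*), 3 (*BRAF*) or 4 (*MAP2K1*, *MAPK14*). The *BRAF* window belongs to a start 661 bases from the canonical one, and it lies inside the gene. Of 34943 RefSeq windows of this length, 92.7% hold at least 1 core match, with a median of 3. A longer form of the core, CCGGAA on either strand, occurs once in the *SPRY2* window, in none of the other 6 members' windows nearest to the canonical start, and in 14.5% of all windows. These matches describe the letters of the windows and are not binding sites.

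The other genes of the pathway were described from 7 lists of 70 genes in all, of which 68 were tested in both cell lines. In U87MG 4 were called higher and 0 lower, and in U251MG 2 were called higher and 4 lower. Over all tested genes, 1252 were called higher and 727 lower of 17355 in U87MG, and 760 higher and 728 lower of 18222 in U251MG. The shared edgeR test had 2 higher and 3 lower at an adjusted P below 0.05 among 68 tested, beside 0.919% and 2.14% of 16649 genes. Their median log2 fold changes were -0.014 in U87MG and -0.097 in U251MG. A total of 6 of the 68 were higher in U87MG and lower in U251MG with both intervals clear of 0, and 5 were the reverse, beside 3.39% and 3.90% of the 16384 genes tested in both.

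Other transcripts commonly read as ERK output went in mixed directions. With both intervals clear of 0, 3 of 10 were higher in U87MG and lower in U251MG, 1 was the reverse, 1 was higher in both and 2 were lower in both. Of the 16384 genes tested in both, 3.39% were higher in U87MG and lower in U251MG and 3.90% the reverse. Of the same genes, 1940 were higher in both and 2002 lower in both. Of the 10 listed, 2 were called higher in U87MG and 0 lower, and 0 were called higher in U251MG and 2 lower. Over all tested genes, 1252 were called higher and 727 lower of 17355 in U87MG. In U251MG these were 760 and 728 of 18222. *EGR1*, an immediate early transcription factor, was at 19.7 and 40.6 CPM in U87MG and at 21.3 and 12.7 CPM in U251MG, log2 fold changes of 1.04 (0.83 to 1.26) and -0.74 (-0.96 to -0.54). *ETV4*, an ETS factor induced by ERK, was called in U87MG, at 1.42 (0.80 to 2.19) from 22 and 118 counts, and had 0.18 (-0.19 to 0.57) in U251MG.

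*FOSL1*, an AP-1 subunit, went from 53.5 to 13.3 CPM in U251MG, or 24.9% of control with a log2 interval of -2.18 to -1.84, and had -0.093 (-0.26 to 0.071) in U87MG. *EPHA2*, a receptor tyrosine kinase, was at 590 CPM in U251MG control and 280 CPM in shFLI1, with a log2 ratio of -1.08 (-1.12 to -1.04), against -0.12 (-0.16 to -0.082) in U87MG, which became 0.037 with total counts. *PHLDA1* was lower in both, at -0.19 and -0.37. *CCND1*, which encodes cyclin D1, and the ETS factors *ETV5* and *ETV1*, like the ephrin receptor *EPHA4*, were picked out after their values were seen. *CCND1* had 0.66 (0.55 to 0.76) in U87MG and -0.55 (-0.61 to -0.49) in U251MG, and *ETV5* had 0.85 (0.74 to 0.97) and -0.64 (-0.72 to -0.56). *EPHA4* was the reverse, at -0.38 (-0.62 to -0.13) and 0.92 (0.73 to 1.11), and *ETV1* was higher in both, at 0.21 (0.018 to 0.40) and 0.28 (0.13 to 0.43). For this list the shared edgeR test had 0 of 10 at an adjusted P below 0.05 and 3 at an unadjusted P below 0.05. Over all 16649 genes tested, these numbers were 509 and 2751.

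**Figure D4:**
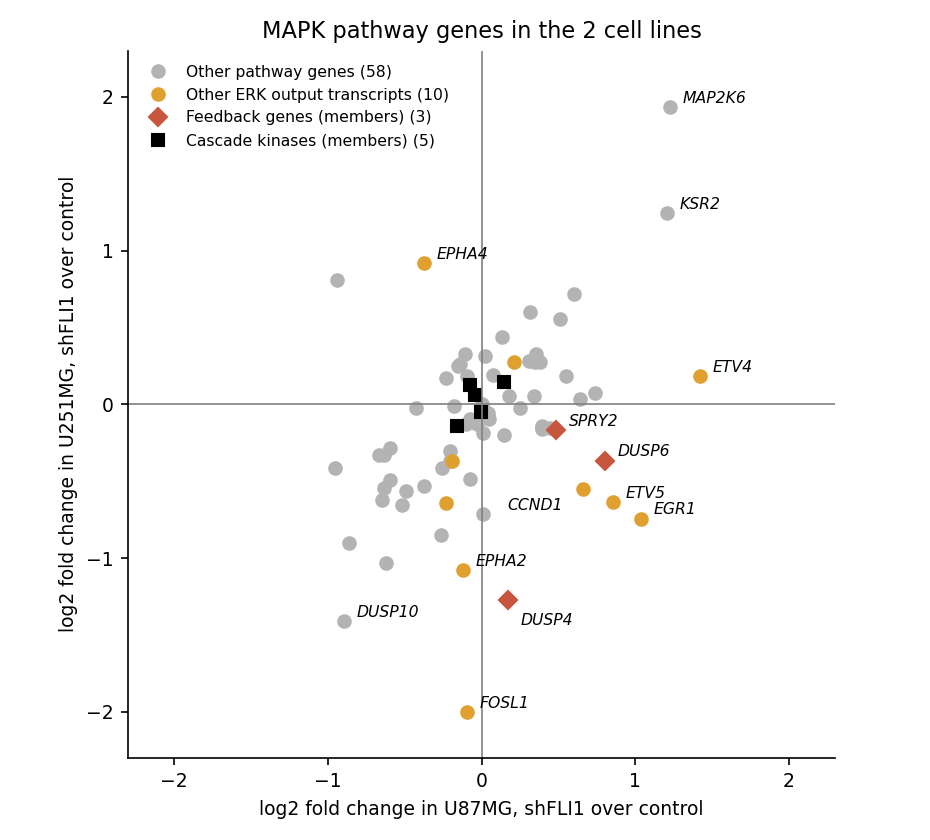
Each point is a gene tested in both cell lines, at its log2 fold change in U87MG (x axis) and in U251MG (y axis). The 5 kinases (black squares) sit at the centre. *DUSP4*, *DUSP6* and *SPRY2* (red diamonds) lie to the lower right with *EGR1*, *ETV5* and *CCND1* (orange). *EPHA4* (orange) and *RPS6KA2* (grey, not labelled) lie to the upper left. By FPKM, *DUSP6* had 0.047 in U251MG.

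The other MAPK phosphatases did not share the U87MG direction of *DUSP4* and *DUSP6*. Of 8 listed, 7 were tested in each cell line, 0 were higher in either, and 3 were lower in U87MG and 5 in U251MG. Over all tested genes, 23.3% were lower and 26.7% higher at any fold in U87MG, and 23.1% and 24.6% in U251MG. *DUSP1*, an inducible phosphatase of p38, JNK and ERK, had log2 fold changes of -0.62 (-0.75 to -0.50) and -1.03 (-1.19 to -0.88), with an adjusted P of 0.0260 in the shared edgeR test. *DUSP10*, which acts on p38 and JNK, had -0.89 (-1.23 to -0.57) and -1.41 (-1.74 to -1.12), with an adjusted P of 0.0301 from edgeR. Both were lower in 2 of 2 cell lines and were called in U251MG. *DUSP7*, an ERK phosphatase, had -0.63 and -0.55.

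Of 6 other Sprouty and Spred inhibitors, 0 were called in either cell line. This is beside 11.4% of all tested genes in U87MG and 8.17% in U251MG. *SPRY4* had 0.39 (0.24 to 0.55) in U87MG and -0.14 (-0.27 to -0.0090) in U251MG. *SPRED1* was higher in both, at 0.31 and 0.28.

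Among 14 RAS genes and adaptors upstream of RAF, 0 were called in either cell line, beside 11.4% and 8.17% of all tested genes. At any fold, 5 were higher and 6 lower in U87MG, against 26.7% and 23.3% of all tested genes. In U251MG 5 were higher and 7 lower, against 24.6% and 23.1%. With both intervals clear of 0, 3 were higher in both cell lines and 5 lower in both. *RRAS*, a RAS-related GTPase, was lower in both at -0.86 and -0.90, with an adjusted P of 0.0165 in the shared edgeR test. Those with the highest mean CPM were *SOS2*, an exchange factor for RAS, at -0.65 and -0.62, and *SHC1*, an adaptor of receptor tyrosine kinases, at -0.67 and -0.33.

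Among 11 other kinases and scaffolds of the cascade, *KSR2*, a scaffold of RAF and MEK, was called higher in both cell lines, at 1.21 (0.80 to 1.67) and 1.24 (0.76 to 1.83) from 38 to 254 counts, with an adjusted P of 0.0403 from the shared edgeR test. *IQGAP1*, a scaffold of MEK and ERK, had -0.11 and 0.33, and 0.050 in U87MG with total counts.

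Among 13 genes of the p38 and JNK arms, *MAP2K6*, which encodes a kinase that activates p38, was called higher in both cell lines. It was at 3.23 and 7.69 CPM in U87MG and at 6.06 and 23.4 CPM in U251MG, log2 fold changes of 1.23 (0.73 to 1.80) and 1.93 (1.65 to 2.25), with an adjusted P of 0.0122 from the shared edgeR test. The p38 substrate kinase *MAPKAPK2* was lower in both, at -0.49 and -0.57. *MAP2K3*, another activator of p38, had 0.64 (0.50 to 0.78) in U87MG and 0.033 (-0.085 to 0.15) in U251MG. Of 8 kinases and ETS factors downstream of ERK, 0 were called in either cell line. Over all tested genes, 11.4% were called in U87MG and 8.17% in U251MG. At any fold, 3 of this list were higher and 3 lower in U87MG, against 26.7% and 23.3% of all tested genes. In U251MG 5 were higher and 1 lower, against 24.6% and 23.1%. Those with the highest mean CPM were *RPS6KA1*, at -0.64 and -0.33, and *MKNK2*, at -0.43 and -0.023.

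The pathway genes most like each feedback gene were found by the Euclidean distance of log2 CPM, centred over the 4 libraries. Nearest to *DUSP4* were the phosphatase *DUSP5* (distance 0.42) and *EPHA2* (0.48). Nearest to *DUSP6* were *EGR1* (0.33) and *MAPK10* (0.54), and nearest to *SPRY2* were *MAPK10* (0.10) and *SPRY4* (0.33). *MAPK10*, which encodes the JNK3 kinase, had between 57 and 146 counts, and its log2 fold changes of 0.39 (-0.052 to 0.87) and -0.15 (-0.58 to 0.27) had intervals that spanned 0.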

How the data were processed

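After adapter and quality trimming, the authors aligned the reads to GRCh38 by HISAT2, and StringTie gave the deposited FPKM values. The deposited table also holds estimated counts, not normalized and not always whole, for 185042 linear RNAs in each of 4 libraries; the counting tool is not given in the sources used here. A further 10 columns (TPM and means over cell lines) and 31346 circular RNAs were not used. Linear counts were summed per gene identifier (46660, of which 24411 are Entrez numbers) and rounded. Counts were scaled by TMM over all genes, and log2 fold changes used a prior count of 2. The shared test was edgeR 4.0.16's quasi-likelihood test (R 4.3.3) on genes kept by filterByExpr, with cell line as a block, TMM over those genes and Benjamini-Hochberg adjustment over all 16649; DESeq2 1.42.0 was an alternative. The fits were tested on simulated data. PCR duplicates cannot be told from molecules, so intervals cover counting error alone. Samples were grouped by their titles, and table columns by their headings.

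The members and lists were chosen with earlier results of these data known. Other pathway genes were named when called in a cell line, past the shared threshold, among the 2 of their list with the highest mean CPM, or nearest to a feedback gene; 1 gene named by this rule is not reported here. RefSeq windows matched 7 of the 8 members. GENCODE exons gave the overlaps.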

Additional observations from a re-analysis of the deposited data

Results flagged for a closer look

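For 13 of the members and pathway genes whose log2 fold changes are given, these had opposite signs in the 2 cell lines. With 1 library per arm, no spread between cultures enters the comparison, and the difference was not tested against replicates. U251MG minus U87MG, with 95% counting intervals, was -1.45 for *DUSP4* (-1.59 to -1.30), -1.17 for *DUSP6* (-1.56 to -0.78) and -0.65 for *SPRY2* (-0.96 to -0.35). Among the other ERK output and feedback transcripts it was -1.78 for *EGR1* (-2.07 to -1.49), -1.49 for *ETV5* (-1.63 to -1.35), -1.21 for *CCND1* (-1.33 to -1.09), -0.72 for *DUSP5* (-1.17 to -0.28) and -0.53 for *SPRY4* (-0.73 to -0.34), while *EPHA4*, also an ERK output transcript, had 1.29 (0.99 to 1.60), the other way. It was 0.44 for *IQGAP1* (0.37 to 0.50) and 0.20 for *BRAF* (0.010 to 0.39). The intervals of *MAPK3*, 0.10 (-0.14 to 0.35), and of *MAPK10*, -0.55 (-1.15 to 0.057), included 0. The opposite sign of *DUSP6* rests on the counts, since FPKM gave 0.047 in U251MG. For *DUSP5* the U87MG value was 0.0082 (-0.33 to 0.36), so a rise there was not detectable, against -0.72 (-1.03 to -0.42) in U251MG. With scaling to total counts, *BRAF* (0.087), *MAPK3* (0.12) and *IQGAP1* (0.050) were positive in U87MG as in U251MG. Further list genes had opposite directions with both intervals clear of 0, and were picked out after this was seen. *NRAS*, *PEBP1* and *RPS6KA2* were lower in U87MG and higher in U251MG, and *GRB2* and *NF1* were the reverse. The difference of *RPS6KA2* was 1.75 (1.11 to 2.38), larger than that of *EPHA4*. *NRAS* and *PEBP1* also turned positive in U87MG with scaling to total counts.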

How the results depend on the processing

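Each arm has 1 library per cell line, so no replicate could be left out, and the shared test has no residual degrees of freedom without a cell line. Called genes numbered 1979 in U87MG and 1488 in U251MG, against 555 and 400 with at least 100 counts in 1 library and 3529 and 2810 at 1.5-fold. At 1.5-fold, 1 of the 8 members was called in U87MG, *DUSP6*, against 0 at 2-fold. In U251MG 1 was called under all 5 alternatives run. The shared test had 509 genes, 1303 with at least 1 count in any library and 0 once the cell line was dropped as a block, where 725 had an unadjusted P below 0.05; the causes were not tested. Scaling to total counts moved the median of all tested U87MG genes from 0.059 to 0.22, and 75.0% of called genes were then higher, against 63.3%; with shFLI1 thinned to control depth 52.8% were. *DUSP4* called lower in U251MG kept between -1.34 and -1.06, *DUSP6* in U87MG between 0.77 and 0.96 and *SPRY2* in U87MG between 0.38 and 0.65. Of 128 member values under alternatives, 99 lay inside the counting interval of the value reported, and 19 changed sign. The RNA with the most counts alone, and TMM factors of all genes (370 shared genes), were added after seeing the data. Depth limits *DUSP6* and *SPRY2* most, at 139 and 226 counts in U87MG control.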
